A study of Macaca mulatta with 5 samples.

Results

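The genes described here run the cell division cycle and copy DNA. They were taken by symbol from the array's probe annotation and comprise the MCM, ORC and GINS families with CDC6 and CDC45, the replicative polymerases with RFC and PCNA, the cyclins of the A, B, D and E classes with their kinases, CDC25 phosphatases and CDKN inhibitors, the E2F factors, and the CENP, BUB, AURK and PLK families with TOP2A and MKI67. The rule for choosing genes used names only, but it was set with earlier results of these data known. It gave 84 of the 14132 named genes on the array, each followed on its brightest probe set (the group of probes that reads 1 transcript). Of the 84 genes, 47 had a single probe set and 37 had several. Signals were at or above the detection floor of 100 on all 5 arrays for 74 genes, on some arrays for 7, and on no array for AURKC, CCNB3 and RFC3. Members of these families without a probe set under their own symbol, such as MCM6, MCM7, BUB1 and PLK1, were not analysed here.

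The study followed line 366.4, embryonic stem cells of the rhesus macaque, through a culture meant to yield serotonin neurons, with 1 array at each of 5 stages. The stages were stem cells at passage 13 on mouse embryonic fibroblasts (ESC), embryoid bodies of 6 to 8 days (EB), neurospheres kept 7 to 9 days in DMEM/F12 with N2 supplement (N1), the same medium with FGF4 for 7 to 9 days (N2), and a maturation phase without FGF4 in growth-factor-reduced wells (N3). All stages came from this 1 line, the labels name no transgene, and each array read a whole culture. With 1 array a stage there is no replicate spread, so no difference below has a test or a p-value. Where 5 signals stand in a row, they run in the order ESC, EB, N1, N2, N3.

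Before a cell copies its DNA, the origin recognition complex and CDC6 load the MCM helicase onto chromatin, and CDC45 and the GINS complex then switch the helicase on. Cyclins bound to cyclin-dependent kinases drive each transition, CDC25 phosphatases activate these kinases, CDKN proteins restrain them, and E2F factors control transcription of many replication genes. Pluripotent stem cells are known for fast cycles, and mature neurons have left the cycle.

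Arrays differed in RNA quality and in cell content. The ratio of the 3' to the 5' actin control was 1.73 (ESC), 15.2 (EB), 5.43 (N1), 25.2 (N2) and 8.63 (N3). For the GAPDH control it was 1.94 (ESC), 2.78 (EB), 1.69 (N1), 7.1 (N2) and 2.1 (N3), a smaller spread. The stem cell factor gene POU5F1 had a signal of 28621 in ESC and was below 100 in N2 and N3. The other 5 measured stem cell markers were split: DNMT3B, DPPA4 and SALL4 were lower in N3 than in ESC, SOX2 was 19736 in ESC and 14978 in N3, and NANOG was 1047 and 2155. The summed signal of 5 neuron markers was 5199 (ESC), 3790 (EB), 21998 (N1), 31428 (N2) and 53058 (N3). That of 4 neural progenitor markers, SOX2 among them, was 20758 (ESC), 4862 (EB), 6857 (N1), 21621 (N2) and 26944 (N3). Of these, PAX6 was 753 in ESC and 3322 in N3, DLL1 was 264 and 6058, and HES5 was 5.26 and 2586. Progenitor markers were thus not lost in N3. The serotonin-synthesis enzyme genes TPH1 and TPH2 and the serotonin lineage factor gene LMX1B were below 100 on every array, although the titles of N2 and N3 call them serotonin neurons. Of the other 3 measured serotonin markers, GATA3 was 348 in ESC and 895 in N3, GATA2 was between 107 and 203, and FEV was between 66.0 and 121. Markers of other cells were present as well, and their part in the results below was not tested. The summed signal of 8 fibroblast and feeder markers was 50235 (ESC), 37382 (EB), 41859 (N1), 57298 (N2) and 65040 (N3), and that of the skeletal muscle myosin genes MYH3 and MYL1 was 83.3 in ESC and 26104 in N3. That of 4 endoderm markers was 2003 (ESC), 53657 (EB), 38164 (N1), 11518 (N2) and 1948 (N3), and that of 3 heart markers was 476 in ESC, 15955 in EB and 5552 in N3.

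The matured cells had lower signals of replication and division genes than the stem cells, and higher signals of CDK inhibitor genes. Of 81 members measured in N3 or ESC, 31 were at least 2-fold lower in N3 (38.3%), where 16.4% of the 11232 measured named genes were. At least 2-fold higher signals were found for 10 members (12.3%), against 17.2% of all measured genes. At a 1.5-fold threshold 50 members were lower (background 30.4%) and 14 higher (background 25.6%). The median log2 ratio was -0.78 over the members and -0.13 over all measured genes. Of the genes with several probe sets, 3467 entered an estimate of the spread between sets in this comparison. The SD of a single set's log2 ratio was 0.74, which is the only technical spread available. The difference between the sets of a gene has a larger SD than this, because it holds the spread of each set.

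**Figure D1:**
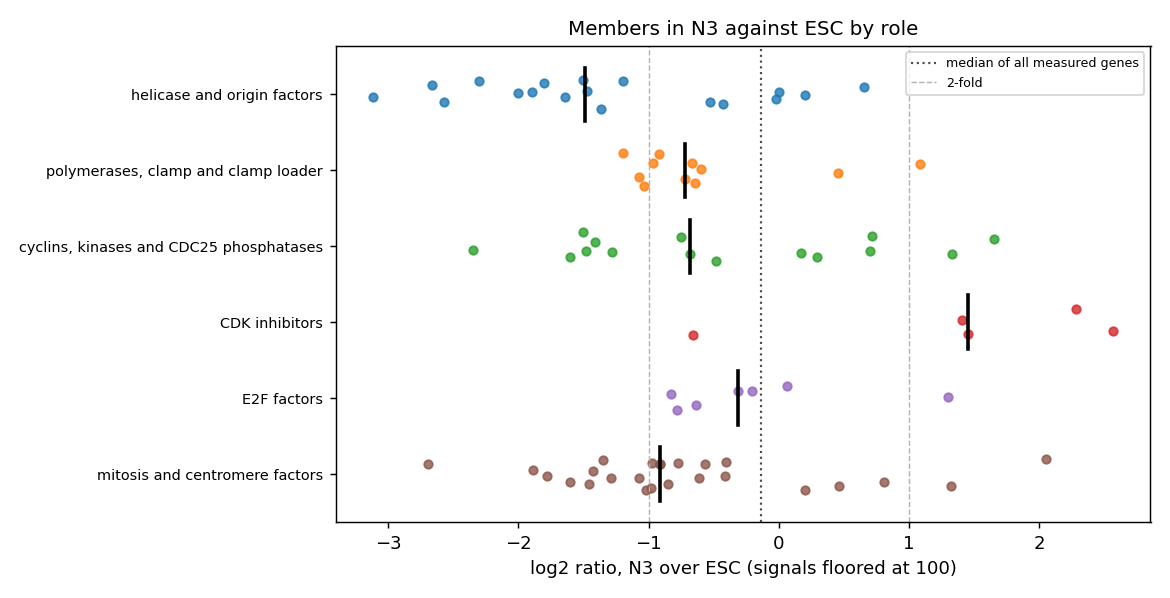
Each point is 1 member, placed by its log2 ratio of N3 over ESC and by its role; black bars mark the median of a role, the dotted line the median of all measured genes and dashed lines 2-fold. The helicase and origin factors lie furthest left with a median of -1.49, and 4 of the 5 CDK inhibitors lie beyond 2-fold to the right.

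N3 was also the stage with the lowest signal for 45 of the 81 members that reached 100 on any array (55.6%), compared with 24.7% of 11642 named genes. ESC was the highest stage for 40 members (49.4%, against 36.4% of named genes). With EB and N2 left out, the arrays with the highest actin ratios, N3 was the lowest for 58 of 81 members (71.6%, against 40.2% of 11492 named genes). N3 and ESC themselves had actin ratios of 8.63 and 1.73, and the part of this difference in their comparison was not tested. In a whole culture, fewer dividing cells and less RNA per dividing cell cannot be told apart.

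**Figure D2:**
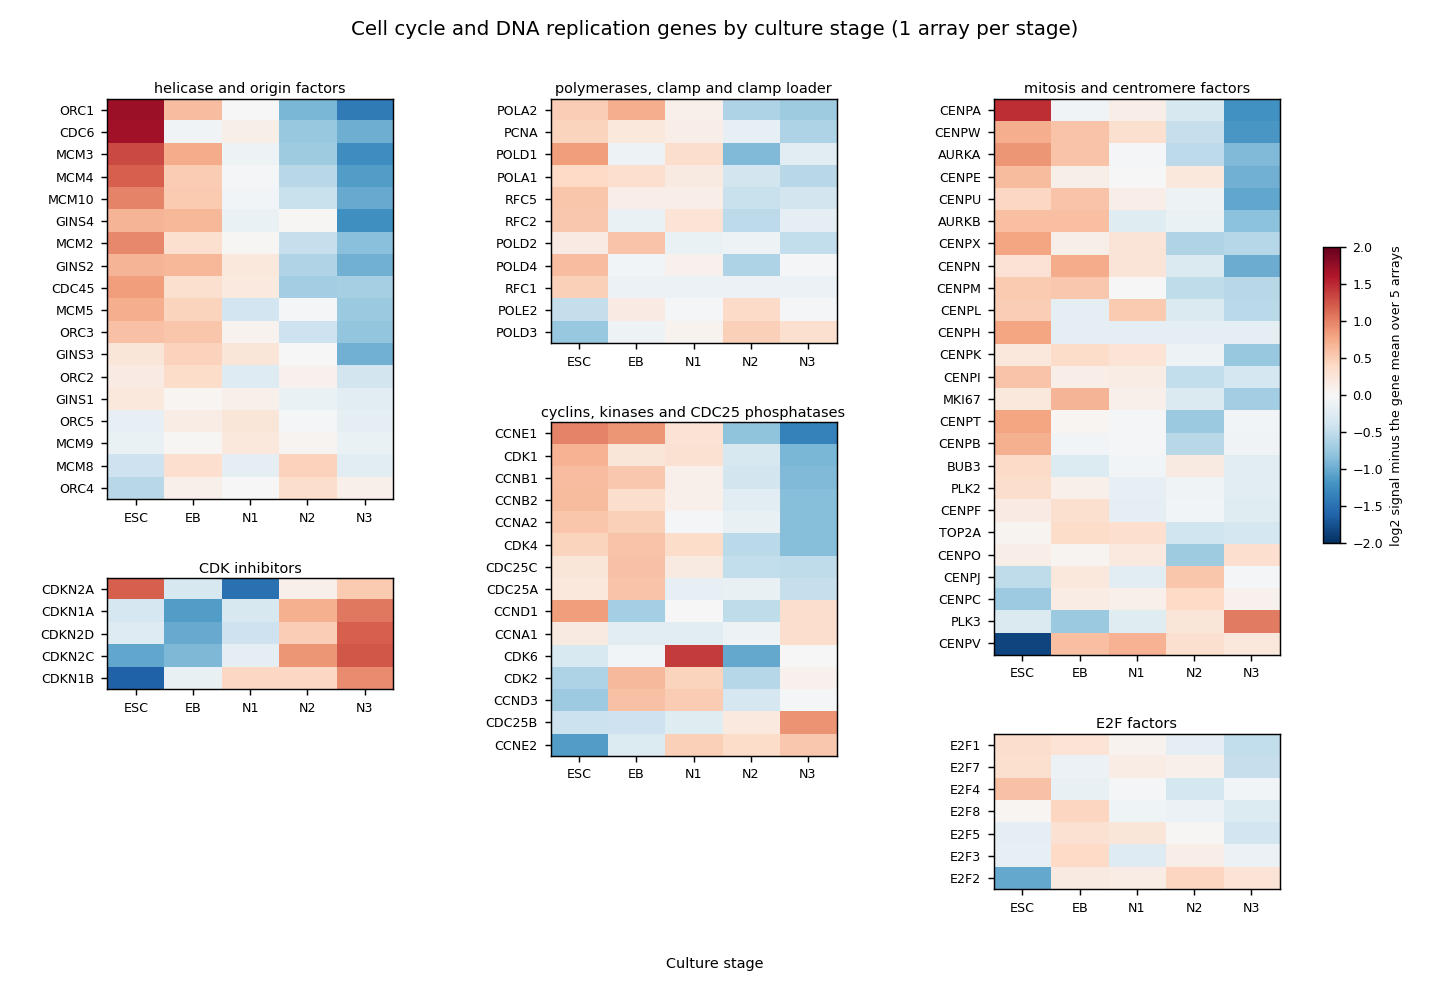
Rows are the 81 members that reached a signal of 100 on at least 1 array, grouped by role and ordered by their N3 to ESC ratio, columns are the 5 stages, and colour gives the log2 signal (floored at 100) minus the gene's mean over the 5 arrays. Most helicase, cyclin B and centromere rows run from red in ESC to blue in N3, while the CDK inhibitor rows other than CDKN2A run the other way.

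The helicase and origin factors held the largest share of lower genes among the 6 roles in N3 against ESC. Of 18 genes, 12 were at least 2-fold lower (66.7%, against 16.4% of all measured genes) and 0 were higher (against 17.2%). Their median log2 ratio was -1.49. MCM2, MCM3, MCM4 and MCM5 encode subunits of the ring-shaped helicase that unwinds DNA at the fork. MCM3 had a signal of 6980 (ESC), 4646 (EB), 2601 (N1), 1704 (N2) and 1177 (N3), and was 5.93-fold lower in N3 than in ESC. MCM4 had 8043, 4998, 3469, 2408 and 1633 at the same stages, and was 4.92-fold lower. Both were highest in ESC and lowest in N3, with each stage below the one before it. MCM2 followed the same order with 7447, 4754, 3879, 2788 and 2131 (3.49-fold lower). MCM5, on a probe set able to bind related transcripts, had 6849 (ESC), 5685 (EB), 3192 (N1), 4022 (N2) and 2473 (N3) (2.77-fold lower), so N2 lay above N1 for this subunit.

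On the brightest probe sets, ORC1 and CDC6 had larger ratios than these MCM genes, ORC1 the largest of all members. This order depends on the probe set. A dimmer MCM4 set had a log2 ratio of -3.18 and the dimmer MCM5 set -3.01, against -3.12 for ORC1 and -2.66 for CDC6. ORC1, the origin recognition subunit that is itself regulated through the cycle, had 1222 (ESC), 572 (EB), 376 (N1), 200 (N2) and 141 (N3), and was 8.68-fold lower in N3. CDC6, which joins the origin complex to load the helicase, had 1456, 433, 494, 269 and 230 and was 6.32-fold lower. Most of the CDC6 difference lay between ESC and EB, at 3.36-fold. MCM10, needed for the start of unwinding, was 2635 in ESC and 657 in N3 (4.01-fold lower).

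Of the helicase activators, CDC45 was 1244 (ESC), 869 (EB), 796 (N1), 429 (N2) and 439 (N3) (2.83-fold lower in N3). GINS2 was 4192, 4150, 3017, 1728 and 1344 at these stages (3.12-fold lower), and GINS4 was 568, 561, 324, 360 and 152 (3.72-fold lower). Their partner GINS1 differed little, with 7863 in ESC and 5829 in N3 (1.35-fold lower). GINS3 was 898 in ESC and 391 in N3. The 4 GINS genes thus had N3 to ESC ratios between 1.35-fold and 3.72-fold lower.

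The origin complex genes other than ORC1 were split. ORC3 was 3818 in ESC and 1478 in N3 (2.58-fold lower) and ORC2 was 1567 and 1087 (1.44-fold lower). On their brightest sets ORC5 was 968 and 953, and ORC4 was 1538 and 2417 (1.57-fold higher). A dimmer ORC5 set had 65.3 in ESC, under the floor, and 357 in N3, and the dimmer ORC4 set had 136 and 146. MCM8 and MCM9, which form a separate helicase used in DNA repair, were each within 1.15-fold between ESC and N3. MCM8 had 438 (ESC), 738 (EB), 513 (N1), 801 (N2) and 503 (N3), and MCM9 stayed between 375 and 476 on all arrays.

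**Figure D3:**
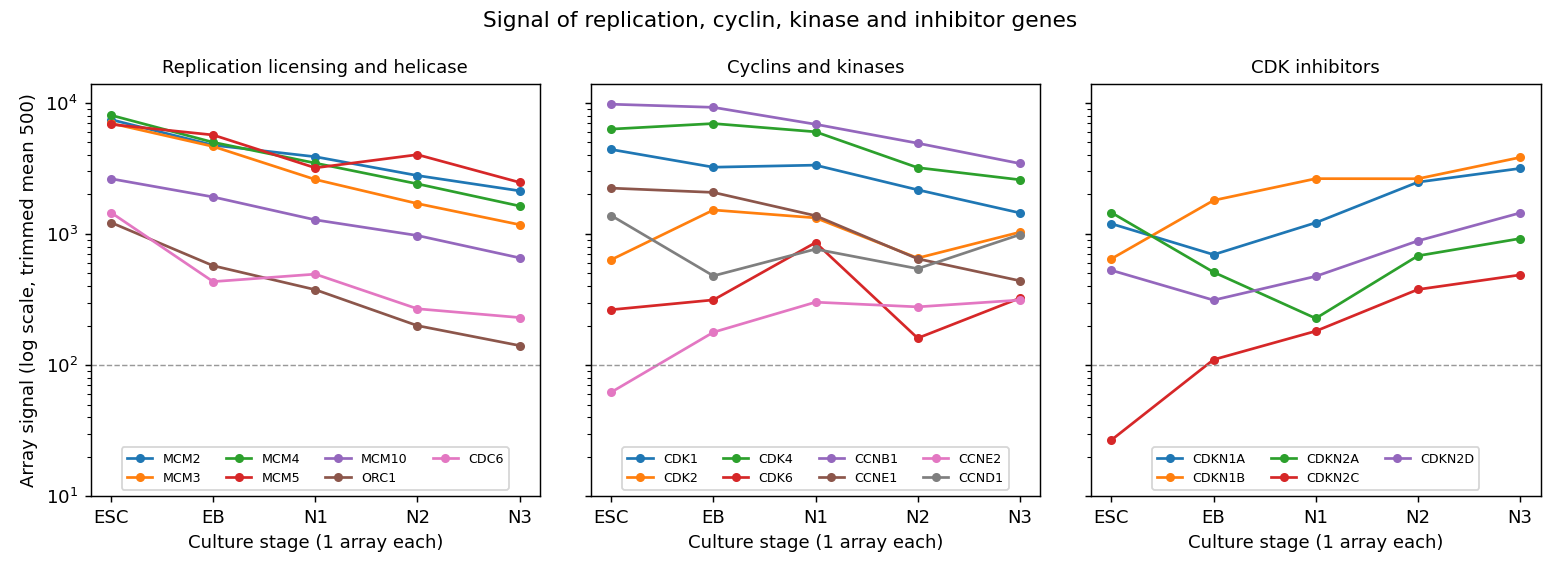
Lines give the array signal on a log axis at each stage for replication licensing and helicase genes (left), cyclins and their kinases (middle) and CDK inhibitors (right), 1 array per point, with the floor of 100 dashed. MCM3 goes from 6980 in ESC to 1177 in N3 and CDKN1B from 647 to 3833, while CDK6 peaks at 859 in N1.

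Among 11 measured polymerase, clamp and clamp loader genes, 3 were at least 2-fold lower in N3 than in ESC (27.3%, against 16.4% of all measured genes) and 1 was higher (9.09%, against 17.2%), with a median of -0.72. All 3 lower genes, PCNA, POLA2 and POLD1, were under 2-fold with hybridisation control scaling, and PCNA also with quantile normalisation. PCNA, the sliding clamp that holds polymerases on DNA, had 14105 (ESC), 11990 (EB), 11347 (N1), 9245 (N2) and 6715 (N3) (2.1-fold lower). POLA2, a subunit of the primase-bound polymerase alpha, had 1286, 1516, 986, 599 and 563 (2.29-fold lower), with its highest value in EB. POLD1, the catalytic subunit of polymerase delta, was lowest in N2, at 354, and 1165 in ESC, 613 in EB, 839 in N1 and 568 in N3. It was lower in EB than in N1 and lower in N2 than in N3, and EB and N2 are the 2 arrays with the highest actin 3' to 5' ratios, whose part in this course was not tested.

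The accessory subunits of polymerase delta differed from one another. POLD3 was the 1 gene of this role at least 2-fold higher in N3, with 1010 (ESC), 1588 (EB), 1798 (N1), 2382 (N2) and 2138 (N3). POLD2 went from 2290 to 1443 and POLD4 from 358 to 229 between ESC and N3. POLE2, a subunit of polymerase epsilon, was 8742 in ESC and 11948 in N3 on its brightest probe set, which the array names as able to bind more than 1 transcript, whereas its other probe set was 1983 in ESC and 617 in N3. The direction for POLE2 therefore depends on the probe set. The clamp loader genes RFC2 and RFC5 were 1.65-fold and 1.89-fold lower in N3.

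The mitotic cyclins and their kinase were all lower in N3. CDK1, the kinase that drives entry into mitosis, had 4406 (ESC), 3228 (EB), 3347 (N1), 2170 (N2) and 1447 (N3) (3.05-fold lower in N3 than in ESC). Its partner CCNB1 had 9754, 9234, 6860, 4919 and 3445 (2.83-fold lower). CCNB2 had 4638, 3821, 3220, 2577 and 1666 (2.78-fold lower), and CCNA2, the cyclin of DNA synthesis and early mitosis, had 4419, 4183, 2981, 2715 and 1665 (2.65-fold lower). On the brightest sets of these 4 genes ESC was the highest and N3 the lowest array, and EB was between 1.06-fold and 1.36-fold below ESC. The EB difference depended on the probe set. Of the other CDK1 sets, 1 had 4076 in ESC and 1863 in EB, and 1 had 1381 and 1488. The second CCNA2 set had 3590 and 2344, and the second CCNB1 set 4411 and 4027. CCNA1, a cyclin of germ cells, stayed at or below 147 throughout and CCNB3, a meiotic cyclin, stayed below the floor.

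The cyclins of entry into DNA synthesis had opposite directions. CCNE1, which activates CDK2, had 2235 (ESC), 2073 (EB), 1378 (N1), 647 (N2) and 440 (N3) (5.08-fold lower). CCNE2 had 62.1, 178, 302, 278 and 313, which made it at least 3.13-fold higher in N3 than in ESC, where it lay under the floor. The other probe set of CCNE2 read 110 in ESC and 215 in N3. CDK2 itself was 636 (ESC), 1523 (EB), 1326 (N1), 655 (N2) and 1031 (N3), so ESC and N2 were its low stages on this probe set. Its dimmer set had 165, 70.5, 113, 75.9 and 135, highest in ESC, so the direction between ESC and EB depends on the probe set.

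D-type cyclins link growth signals to the cycle through CDK4 and CDK6. CDK4 was 6303 (ESC), 6945 (EB), 6010 (N1), 3202 (N2) and 2589 (N3), with N2 1.88-fold below N1. CCND1 was highest in ESC, with 1381, against 479 (EB), 766 (N1), 544 (N2) and 988 (N3). CCND3 was lowest in ESC, with 302, and 747 (EB), 713 (N1), 395 (N2) and 495 (N3). CDK6 stood out on 1 array: it had 264 (ESC), 314 (EB), 859 (N1), 160 (N2) and 324 (N3), so N1 was 2.74-fold above EB and N2 was 5.35-fold below N1. A dimmer CDK6 probe set was also highest in N1, with 170, and was below the floor in EB, N2 and N3.

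CDC25 phosphatases remove the inhibitory phosphates from the kinases. CDC25A was 3968 (ESC), 5104 (EB), 3042 (N1), 3083 (N2) and 2480 (N3), and CDC25C was 681, 867, 651, 409 and 405. The dimmer CDC25C probe set had 601, 125, 381, 132 and 159, so its direction between ESC and EB depends on the probe set. CDC25B was the exception among the 3, with 646 (ESC), 656 (EB), 741 (N1), 998 (N2) and 1619 (N3) (2.51-fold higher in N3 than in ESC). In the whole role of cyclins, kinases and CDC25 phosphatases, 6 of 15 measured genes were at least 2-fold lower in N3 than in ESC (40%, against 16.4% of all genes) and 2 were higher (13.3%, against 17.2%), with a median of -0.68.

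CDK inhibitor genes had the opposite course. At least 2-fold higher signals in N3 than in ESC were found for 4 of 5 genes (80%, against 17.2% of all measured genes). The median log2 ratio was 1.45. CDKN1B, which encodes p27, an inhibitor tied to cell cycle exit, had 647 (ESC), 1803 (EB), 2640 (N1), 2636 (N2) and 3833 (N3) (5.93-fold higher). CDKN1A, which encodes p21, a target of p53, had 1196, 695, 1218, 2483 and 3160 (2.64-fold higher). The CDK4 and CDK6 inhibitor gene CDKN2C had 26.9, 110, 182, 377 and 487, at least 4.87-fold higher. CDKN2D, an inhibitor of the same kinases, had 528, 313, 475, 886 and 1446 (2.74-fold higher). The dimmer CDKN2D probe set had 354, 120, 270, 221 and 574. On it the log2 ratio of N3 over ESC was 0.70, under 2-fold, and N2 lay below N1. N3 was the highest stage for each of these 4 genes, and the lowest stage was ESC for CDKN1B and CDKN2C and EB for CDKN1A and CDKN2D.

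CDKN2A, whose locus encodes p16 and ARF, was the exception. Its brightest probe set had 1454 (ESC), 511 (EB), 227 (N1), 681 (N2) and 922 (N3), with the highest array ESC and the lowest N1. That set is named as able to bind related transcripts, and its other 2 probe sets stayed below the floor on all arrays. Per the labels ESC grew on mouse feeder cells, and the part of feeder RNA in its signals was not tested.

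Among the E2F factors few genes passed 2-fold. Of 7 genes, 0 were at least 2-fold lower in N3 than in ESC (background 16.4%) and 1 was higher (14.3%, background 17.2%), with a median of -0.31. E2F1, an activator of replication genes, had 345 (ESC), 328 (EB), 285 (N1), 236 (N2) and 194 (N3) (1.78-fold lower). A second E2F1 probe set had 682, 40.3, 258, 228 and 130. E2F2, also an activator, had 265, 610, 599, 729 and 650 (2.45-fold higher), but its other probe sets were at or below 118 outside N2. E2F3 stayed between 1829 and 2890, E2F4, a repressor in resting cells, was 2271 in ESC and 1458 in N3, and E2F5 was 3672 and 3186.

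Of 25 measured mitosis and centromere genes, 10 were at least 2-fold lower in N3 than in ESC (40%, background 16.4%) and 2 were higher (8%, background 17.2%), with a median of -0.91. CENPA, the histone variant that marks centromeres, had 745 (ESC), 253 (EB), 293 (N1), 213 (N2) and 115 (N3) (6.48-fold lower). CENPW, a partner at the inner kinetochore, had 6176, 5539, 4651, 2709 and 1673 (3.69-fold lower). The mitotic kinase genes AURKA and AURKB were 3.43-fold and 2.68-fold lower, AURKA with 3717, 2975, 1954, 1400 and 1085 and AURKB with 3856, 3858, 2139, 2308 and 1438. CENPE, the kinesin that moves chromosomes, had 681 in ESC, 508 in N2 and 225 in N3, and N3 was 2.26-fold below N2 (under 2-fold with hybridisation control scaling).

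Other inner kinetochore genes, CENPU, CENPN, CENPM, CENPX and CENPL, were between 2.03-fold (a bound, for CENPL) and 2.74-fold lower in N3. The highest of these, CENPU, had 141 in ESC and 213 in N3 on its dimmer probe set. TOP2A, which untangles DNA, had 7449 (ESC), 9220 (EB), 9027 (N1), 5421 (N2) and 5609 (N3), and was 1.33-fold lower in N3. MKI67, the gene of the Ki-67 proliferation antigen, named after its values were seen, had 1390, 1911, 1287, 978 and 738 (1.88-fold lower). CENPF was 9480 in ESC and 7114 in N3. PLK2, a kinase of centriole duplication and of neurons, was 20792 and 14043.

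The 2 higher genes of this role were CENPV and PLK3. CENPV had 1287 (ESC), 6988 (EB), 7440 (N1), 5751 (N2) and 5324 (N3), so the difference lay between ESC and EB (5.43-fold) and the later stages stayed high. PLK3, a stress-response kinase, had 284, 206, 293, 408 and 710 (2.5-fold higher in N3 than in ESC). CENPO was 112 in N2 and between 190 and 231 on the other arrays, which made it 2.06-fold higher in N3 than in N2.

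Few members passed 2-fold at any single step. Between ESC and EB, 5 of 81 measured members were at least 2-fold lower (6.17%), where 11.8% of all measured genes were, and 5 were higher, where 12.1% were. The lower ones were CDC6, CENPA, CCND1, CDKN2A and ORC1, and the higher ones CENPV, CDKN1B, CCND3, CDK2 and E2F2. With the median over probe sets in place of the brightest, the CDK2 log2 ratio went from 1.26 to 0.27. The median log2 ratio was -0.08 over the members and -0.06 over all genes. At 1.5-fold, 12 were higher (background 22.3%) and 21 lower (background 24%). Scaling the arrays to equal medians moved the median of all genes to 0.41 and gave 13 higher and 4 lower, where 23.9% and 5.96% of all genes were. This scaling turned the medians of the helicase, polymerase and mitosis roles from -0.10, -0.23 and -0.16 to 0.39, 0.25 and 0.33.

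Going from EB to N1, 1 of 78 measured members was higher (CDK6, background 5.15%) and 1 lower (CDKN2A, background 2.2%). The helicase and origin role had a median of -0.47, with none past 2-fold, against -0.02 for all genes. At 1.5-fold, 7 members were higher (background 13.1%) and 13 lower (background 9.93%). These counts depended on the scaling, which put the median of all genes at -0.37 for equal medians and 0.41 for hybridisation controls, with 1 higher and 9 lower for equal medians (2.66% and 8.04% of all genes) and 8 higher and 0 lower (13.8% and 0.691% of all genes) for scaling to the hybridisation controls, bacterial transcripts added at a known amount.

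From N1 to N2, when FGF4 was added, 4 of 79 members were lower (CDK6, POLD1, CCNE1 and CDK2, background 6.53%) and 3 were higher (CDKN2A, CDKN2C and CDKN1A, background 5.06%). All 3 higher members were CDK inhibitors. At 1.5-fold, 6 were higher (background 13.4%) and 23 lower (background 17.5%). The members' median was -0.33 and that of all genes -0.04. Scaling to the hybridisation controls moved the median of all genes to -0.57 and gave 35 lower and 1 higher, where 23.3% and 1.71% of all genes were. The log2 ratios of CDKN1A and CDKN2C were then 0.45 and 0.48, under 2-fold. Equal medians gave 2 lower and 3 higher, where 5.16% and 6.25% of all genes were.

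From N2 to N3, when FGF4 was withdrawn, GINS4 and CENPE were at least 2-fold lower (2 of 79, background 2.19%) and CDK6 and CENPO higher (background 4.78%). With the median over probe sets, the GINS4 log2 ratio went from -1.24 to -0.19, and a dimmer GINS4 set had 112 in N2 and 207 in N3. GINS4, CDK6 and CENPO were under 2-fold with a floor of 200, and CDK6 and CENPO also with quantile normalisation or equal medians. The median log2 ratio was -0.24 over the members and -0.41 over the helicase and origin role, against -0.02 for all genes. All 5 CDK inhibitors had positive log2 ratios, between 0.35 and 0.71. At 1.5-fold, 10 members were higher (background 14%) and 14 lower (background 8.96%). With equal medians 5 members were lower and 0 higher (3% and 3.62% of all genes), and with quantile normalisation 3 and 0 (2.7% and 3.92%). Hybridisation controls moved the median of all genes to 0.17 and gave 1 lower and 4 higher (1.27% and 8.05%).

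Setting N3 against N1 leaves out the stem cell array, the stage grown on feeder cells, a comparison added after the data were seen. The fibroblast and feeder markers still summed to 41859 in N1 and 65040 in N3, and their part in this comparison was not tested. Of 79 measured members 17 were at least 2-fold lower (21.5%, background 6.67%) and 6 were higher (7.59%, background 8.42%). They included CCNE1 (3.13-fold lower), CENPW (2.78-fold), ORC1 (2.67-fold), CDK4 (2.32-fold), CDK1 (2.31-fold), MCM3 (2.21-fold) and MCM4 (2.12-fold). Of the 6 higher, 4 were the inhibitors CDKN2A (4.06-fold), CDKN2D (3.04-fold), CDKN2C (2.68-fold) and CDKN1A (2.59-fold), and the others were PLK3 and CDC25B.

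Partner genes outside these families, in 3 lists, were also counted. Of 18 measured DNA synthesis partners, 9 were at least 2-fold lower in N3 than in ESC and 2 were higher (50% and 11.1%, against 16.4% and 17.2% of all measured genes), with a median of -1.03. They included the histone chaperone gene ASF1B (1390 in ESC and 279 in N3, 4.98-fold lower), the fork protection gene TIPIN (4.59-fold lower) and the chromatin remodeller gene HELLS (4.23-fold lower). The 2 higher were DNMT1, the maintenance DNA methyltransferase gene (131 and 531), and DUT, which keeps uracil out of DNA (429 and 1518). Of 26 mitosis partners 12 were lower (46.2%) and 0 higher (median -0.99), among them the CDK subunit gene CKS1B (8219 and 1530, 5.37-fold lower), the chromosomal passenger gene INCENP (4.15-fold) and the condensin gene SMC2 (3.72-fold). Of 31 checkpoint and ubiquitin partners 11 were lower (35.5%) and 1, the retinoblastoma relative RBL2, was higher (2.32-fold), with a median of -0.84. WEE1, the kinase that holds CDK1 inactive, had 10660 (ESC), 3434 (EB), 1909 (N1), 1724 (N2) and 1033 (N3) (10.3-fold lower), MYBL2, a mitotic gene activator, was 5.07-fold lower, and the checkpoint kinase gene CHEK1 4.3-fold lower.

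Dimmer probe sets of the same members were mostly lower in N3 than in ESC too. In that comparison 36 of 43 other probe sets, from 31 genes, had a lower signal in N3, with a median log2 ratio of -1.04, against -0.26 for the other probe sets of all named genes. Of 18 that belonged to genes past 2-fold, 15 had the same direction and 13 were past 2-fold themselves. The single steps differed between the brightest and the dimmer sets. For EB against ESC the dimmer sets had a median of -0.78, with 30 of 42 lower, against 0.15 for the brightest sets of the same genes. For N1 against EB their median was 0.43, with 33 of 43 higher, against -0.20. For N2 against N1 it was -0.69, with 36 of 43 lower, against -0.27, and for N3 against N2 it was 0.04, with 22 of 42 higher, against -0.27. Dimmer sets of all named genes had medians of -0.36, 0.21, -0.26 and 0.15 at these 4 steps. The step counts above come from the brightest sets. The second MCM4 set had 2676 (ESC), 442 (EB), 612 (N1), 176 (N2) and 296 (N3), and the second MCM5 set had 2259, 460, 612, 153 and 281. On both, EB lay below N1 and N2 below N3, whereas the brightest set of MCM4 was lower at every step. EB and N2 are the arrays with the highest actin 3' to 5' ratios, whose part in these courses was not tested. For CDK1, the other 2 sets had 4076 and 1381 in ESC and 634 and 653 in N3.

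**Figure D4:**
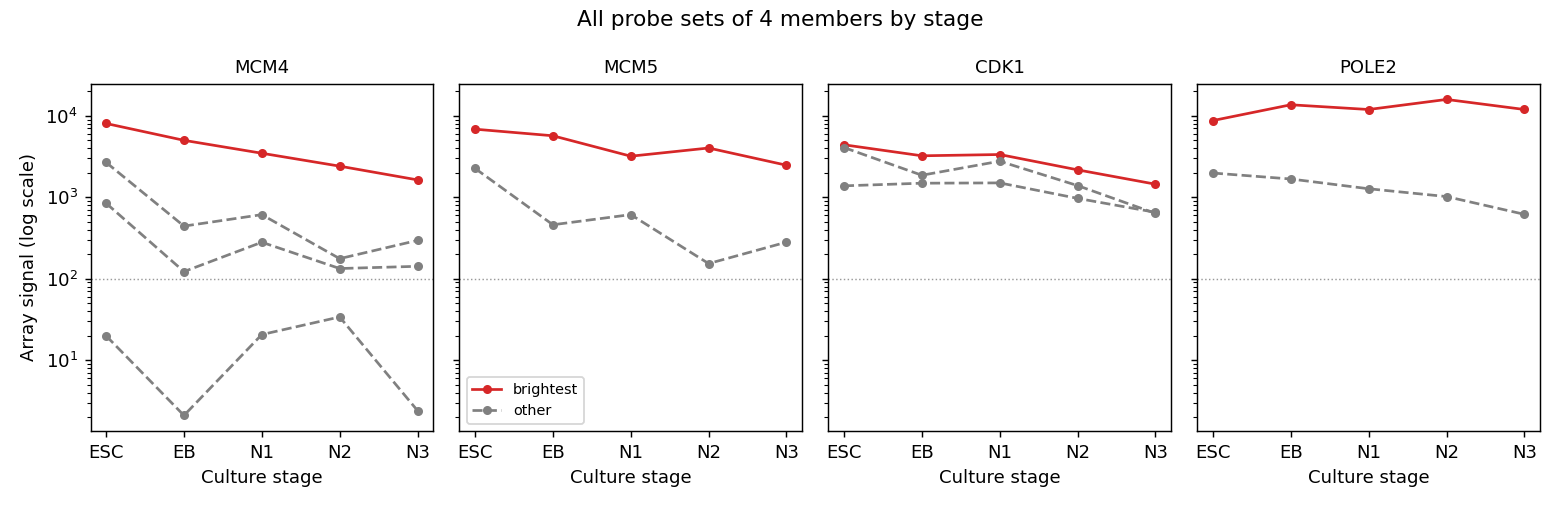
Each panel shows all probe sets of 1 member by stage on a log axis, the brightest in red and the others in dashed grey, with the floor of 100 dotted and 1 array per point. The dimmer MCM4 and MCM5 sets above the floor dip in EB and N2 (a further MCM4 set stays below the floor), all 3 CDK1 sets end lower in N3 than in ESC, and the 2 POLE2 sets have opposite directions.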

How the data were processed

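The authors deposited 1 linear intensity for each probe set and array, made with GCOS 1.0 per the submitters' processing notes. Which algorithm made it is not given in the sources used here. Non-control probe sets of every array were brought to a 2% trimmed mean of 500, floored at 100 and put on the log2 scale. The highest of 42 negative controls was between 47.6 and 87.2. Signals in the text are before flooring, and a ratio with 1 side under the floor is a bound. Probe sets were named from GEO's platform annotation, which can be old. A gene was its brightest probe set by mean log2 signal among those with 1 symbol. All 84 members matched RefSeq by Entrez identifier with the same symbol. No genome build is named for the array, so no coordinates are given.

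A gene was measured in a comparison when at least 1 array reached 100. Counts are of genes at least 2-fold apart, beside the same over all named genes. Named members were MCM2 to MCM5, all cyclins, kinases and inhibitors, the 3 with the highest mean and the 3 with the widest range in each role, and those past 2-fold with a signal of 200 or more. Any other member is given to complete its family and was chosen after its values were seen. Up to 6 genes of a partner list were eligible. Members and lists were chosen with earlier results of these data known. The counting code was run on simulated data without noise, which checks its arithmetic and not the reliability of counts from 1 array a stage. Tools were Python 3.11.15, pandas 2.3.3 and matplotlib 3.10.9. Alternatives were 3 other scalings, a floor of 50 or 200, log2(value + 1) without any floor, the median over probe sets per gene, the brightest set by linear mean, leaving out sets able to bind related transcripts, and a 1.5-fold threshold.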

Additional observations from a re-analysis of the deposited data

How the results depend on the processing

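The number of arrays limits the precision, and no value has a replicate check. No paired analysis was possible because each stage has 1 array. Per-gene medians below are medians over all probe sets of a gene. For N3 against ESC, over the scaling, floor and probe set alternatives, 25 to 37 members were at least 2-fold lower and 9 to 11 higher. Of all measured genes, 12% to 21.9% were lower and 14.1% to 21% higher. Brackets below give the share of all measured genes. At 1.5-fold 50 members were lower (30.4%). With N1 in place of ESC 17 were lower (6.67%) and 6 higher (8.42%). For EB against ESC, higher members numbered 13 with equal medians (23.9%), 3 with per-gene medians (8.54%) and 12 at 1.5-fold (22.3%). Lower ones numbered 8 with a floor of 50 (16.3%), 8 with no floor (18.4%), 12 with per-gene medians (14.2%) and 21 at 1.5-fold (24%). For N1 against EB, higher members numbered 8 with hybridisation controls (13.8%), 3 with per-gene medians (5.26%) and 7 at 1.5-fold (13.1%). Lower ones numbered 9 with equal medians (8.04%) and 13 at 1.5-fold (9.93%). They numbered 0 with hybridisation controls (0.691%), with per-gene medians (1.59%) or without sets able to bind related transcripts (2.19%). For N2 against N1, higher members numbered 1 with hybridisation controls (1.71%) and 6 at 1.5-fold (13.4%). Lower ones numbered 2 with equal medians (5.16%), 35 with hybridisation controls (23.3%), 8 with per-gene medians (7.8%) and 23 at 1.5-fold (17.5%). For N3 against N2, higher members numbered 0 with quantile normalisation (3.92%), equal medians (3.62%) or a floor of 200 (3.85%). They numbered 4 with hybridisation controls (8.05%) and 10 at 1.5-fold (14%). Lower ones numbered 5 with equal medians (3%), 1 with hybridisation controls (1.27%) or a floor of 200 (1.69%), and 14 at 1.5-fold (8.96%).

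Role medians turned sign in 18 of 270 recomputed values, 0 of them in N3 against ESC. In 10 the reported median lay within 0.1 of 0, and the other 8 follow. In EB against ESC the helicase role went to 0.39 with equal medians and 0.0128 with hybridisation controls, polymerases to 0.25 and mitosis genes to 0.33 with equal medians, and E2F factors to -0.175 with per-gene medians. In N1 against EB cyclins and kinases went to 0.26 with hybridisation controls and 0.015 with per-gene medians, and in N3 against N2 polymerases went to 0.078 with hybridisation controls. The causes were not tested. Of 568 values recomputed for named members past 2-fold, 0 turned sign, 27 moved by more than 1 SD of a gene's probe sets, and 37 came under 2-fold. In N3 against ESC 16 values of 9 genes came under 2-fold: CCNE2, PCNA, POLD1, POLA2, AURKB, CENPL, CENPM, CENPU and GINS3. CENPU went from -1.46 to -0.43 and AURKB from -1.42 to -0.71 with per-gene medians.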
